A study of Mus musculus with 52 samples.

Results

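Sox9, Spp1, Epcam, Krt19, Krt7 and Krt23 are genes by which bile duct cells (cholangiocytes) and liver progenitor cells are commonly recognised, and they were followed in mouse liver through regeneration after partial hepatectomy. The 6 genes were taken as a list by their names, drawn up with earlier results of these data known. A probe set, a group of short probes summarised into 1 value, was counted for a gene only where the annotation of the array assigned it to that gene alone, and where a gene had several, the one with the highest mean level stands for it. By this rule 5 of the 6 listed genes were measured, of 18194 genes in all. Spp1, the gene of osteopontin, had no probe set assigned to it in the annotation used and was not analysed here.

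Total RNA of whole liver was hybridized to 52 arrays, 1 for each sample. All samples were labelled as from male C57Bl6/N mice of 8 to 12 weeks on a standard diet. The labels name no transgene, mutation or drug treatment in any group. The reference group was 5 untreated livers, and 47 livers were taken at 11 times after an operation that removes most of the organ: 1 hour (3 arrays), 6 hours (4), 12 hours (4), 24 hours (11), 48 hours (4), 3 days (4), 4 days (4), 1 week (4), 2 weeks (2), 4 weeks (4) and 3 months (3). Livers of sham-operated mice were not analysed here, and anaesthesia, wounding and time of day cannot be told apart from the loss of tissue. Whether each array of a group stands for a mouse of its own is not stated in the labels, and p-values therefore measure the spread between these samples, which may be technical.

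Cholangiocytes line the bile ducts and are a small minority of liver cells. They carry the keratins Krt7 and Krt19 and the adhesion molecule Epcam, which mature hepatocytes lack. After partial hepatectomy the organ is rebuilt mainly by division of mature hepatocytes and the other resident cell types, whereas in injuries that block hepatocyte division Sox9-positive and keratin-positive cells expand from the ducts in what is called a ductular reaction. In RNA of whole liver, a change in the number of cells of a type and a change in RNA per cell cannot be told apart.

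All values below are levels on the deposited log2 scale or differences between such levels, and a difference of 1 is a doubling. The 5 genes lay low on this scale. Array medians over all probe sets were 3.89 to 4.10, and levels near them are not separated from the background of the array. Group means of Krt7 (3.25 to 4.42) and Krt23 (3.20 to 3.67) lay around or below the array medians, and those of the Epcam probe set (4.13 to 4.78), Krt19 (4.37 to 5.29) and Sox9 (4.45 to 5.68) lay above them. Of the hepatocyte genes that mark the labelled tissue, Alb (albumin) had a group mean of 14.0 in untreated liver. Levels are not compared between genes, because probe sets differ in how strongly they bind.

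The untreated arrays had higher means than every operated group in technical measures, although single arrays overlapped and the differences were not tested. Their spiked hybridization controls averaged 10.9 against 9.73 to 10.4 in the operated groups, their poly-A controls 6.88 against 4.89 to 6.67, and the Gapdh 3' minus 5' difference, a sign of RNA degradation, 1.61 against 0.653 to 1.10. Replicates 9, 10 and 11 of the 24-hour group are labelled male but carried Xist, a noncoding RNA of female cells, at 9.12 to 9.48, against 2.51 to 3.81 on all other arrays. They were among 7 doubted arrays, the others being 24-hour replicate 1, untreated replicate 1, 1-week replicate 4 and 4-week replicate 1, and results are given without them where a call ended. Markers of Kupffer cells, the resident macrophages, were higher in 73.6% of 110 gene and time pairs and lower in 0, against 14.6% and 10.6% of the pairs of all genes, and the part of cell makeup in the results below was not tested.

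**Figure D1:**
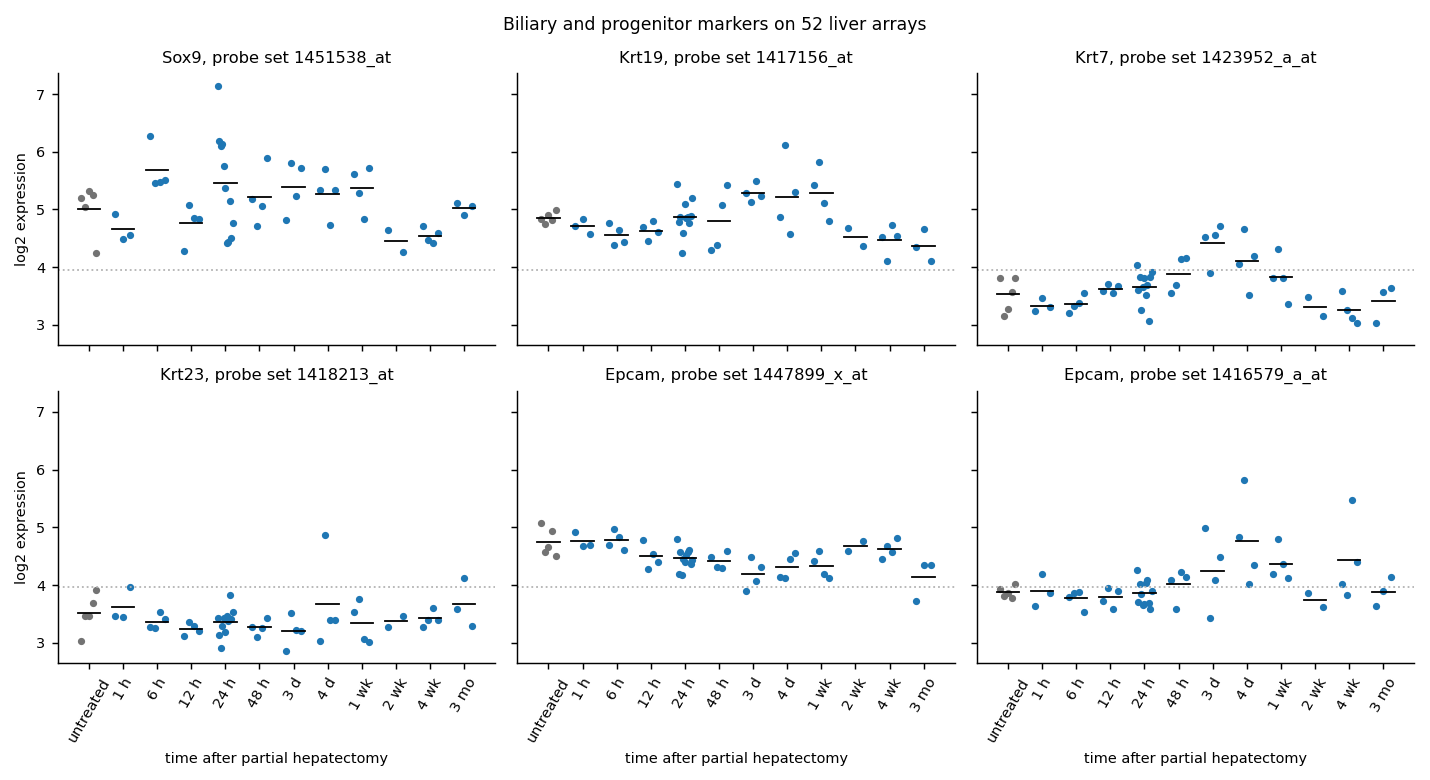
Log2 expression of Sox9, Krt19, Krt7, Krt23 and both Epcam probe sets on all 52 arrays (y axis) by group (x axis), with a point for each array, a bar for the group mean, grey points for untreated liver and a dotted line for the mean array median. Krt7 was highest at 3 days (mean 4.42), Sox9 spread most at 24 hours (4.43 to 7.15), and 1 array at 4 days stood high for Krt19 (6.12), Krt23 (4.86) and the second Epcam probe set (5.82).

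Against untreated liver the 5 genes gave 55 comparisons over the 11 times (limma fit over all 52 arrays, two-sided, Benjamini-Hochberg adjusted p under 0.05 over 18194 genes). Higher levels were called in 2, both of Krt7, against 14.6% of all gene and time pairs, and lower levels in 5, all of the Epcam probe set, against 10.6%. An unadjusted p under 0.05 was reached in 9. These 2 and 5 of 55 were a smaller share than that of all genes in the higher direction and near it in the lower one. With the hybridization controls as a covariate, 0 were called higher and 0 lower by limma, with 1 in each direction at an unadjusted p under 0.05. The moderated F test over all 11 times was passed by 64.6% of all genes. Of the members, Krt7 (adjusted p = 7.3e-05), the Epcam probe set (0.00094) and Krt19 (0.0036) passed it. Sox9 (0.054) and Krt23 (0.53) did not. The Sox9 F test passed in 12 of 17 alternative settings. The 10 steps between neighbouring times gave 50 further comparisons, in which limma called 0 up and 0 down, with 5 up and 4 down at an unadjusted p under 0.05, against 3.85% of all gene and step pairs called in either direction.

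**Figure D2:**
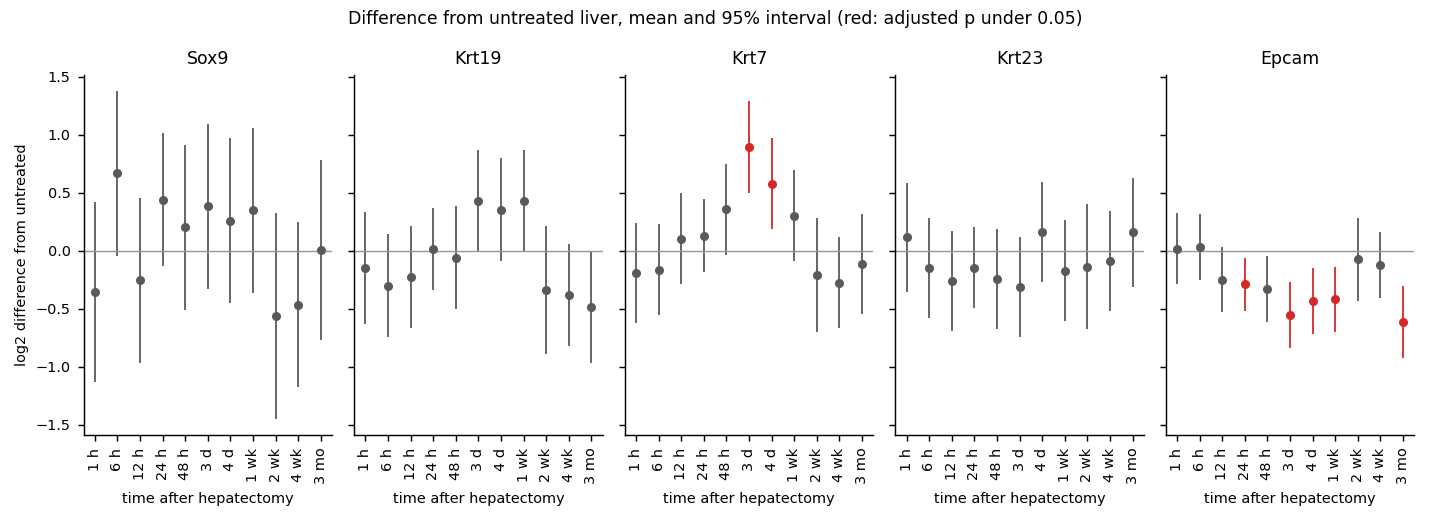
Difference from untreated liver (y axis, log2) of the 5 genes at the 11 times (x axis), as the fitted mean with its 95% interval from limma, in red where the adjusted p was under 0.05. Krt7 was above at 3 days (0.89) and 4 days (0.58), the Epcam probe set was below at 24 hours, 3 days, 4 days, 1 week and 3 months, and no difference of Sox9, Krt19 or Krt23 passed.

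Krt7 and Epcam, the latter on a probe set that its other set did not follow, were the members with called changes. For both genes RefSeq (GRCm38.p6) gives the bases before the start of transcription. The 250 bases are shown 5' to 3' on the strand of the gene. Those of Krt7 are chr15:101412153-101412402 on the plus strand, and those of Epcam chr17:87635729-87635978 on the plus strand. Capitals mark each match to ATAAAA, searched on both strands as a short AT-rich run of the TATA-box kind.
Krt7: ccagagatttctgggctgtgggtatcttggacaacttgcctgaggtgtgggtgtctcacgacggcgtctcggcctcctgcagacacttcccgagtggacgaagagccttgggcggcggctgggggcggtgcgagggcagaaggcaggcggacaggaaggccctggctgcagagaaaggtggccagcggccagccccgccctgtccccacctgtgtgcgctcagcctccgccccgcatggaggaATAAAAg
Epcam: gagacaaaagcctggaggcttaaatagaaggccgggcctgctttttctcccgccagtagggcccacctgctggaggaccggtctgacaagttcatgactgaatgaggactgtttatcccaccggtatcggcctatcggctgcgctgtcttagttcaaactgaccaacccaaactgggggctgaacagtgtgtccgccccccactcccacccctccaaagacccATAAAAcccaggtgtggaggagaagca
Each window held 1 match, which began 7 bases before the start in Krt7 and 27 bases before it in Epcam. The 250 bases before Krt23 (chr11:99493121-99493370, minus strand) also held 1, beginning 31 bases before the start. Of 32851 mouse promoters of this length, 17% held ATAAAA on either strand, and 2.16% held it starting 45 to 15 bases before the start on the strand of the gene, as Epcam and Krt23 did. The table had an entry for 3 of the 5 measured genes, so Sox9 and Krt19 are named only. These matches are descriptions of the letters.

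Sox9 encodes a transcription factor that directs bile duct development and marks biliary cells and some hepatocytes beside the ducts. Its untreated level on probe set 1451538_at was 5.01 ± 0.44 (SD, n = 5), with array values of 5.20, 5.05, 5.32, 5.26 and 4.25. At 6 hours the 4 arrays read 6.27, 5.46, 5.48 and 5.51, each above all 5 untreated arrays. The share of all genes whose arrays did so was not counted, here or for the other groups below. The 6-hour difference of Sox9 was 0.67 ± 0.35 (SE) with a 95% interval of -0.05 to 1.38. It did not pass (limma adjusted p = 0.19), at a time when 22% of all genes were called. It passed with only the 6-hour and untreated arrays fitted (adjusted p = 0.043), with array weights (0.66, 0.028) and with the Gapdh difference as a covariate (1.08, 0.023). The second probe set, 1424950_at, read 0.55 higher at 6 hours (adjusted p = 0.11), and the third, 1433889_at, with group means of 3.20 to 3.59 below the array medians, read -0.04 (0.89).

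On either side of this time the Sox9 arrays were lower. Sox9 read 4.66 ± 0.23 at 1 hour (n = 3), 5.68 ± 0.39 at 6 hours (n = 4) and 4.76 ± 0.33 at 12 hours (n = 4). The 3 arrays at 1 hour (4.92, 4.50 and 4.55) and the 4 at 12 hours (4.29, 5.08, 4.84 and 4.83) all lay below the lowest 6-hour array. The step from 1 to 6 hours was 1.02 ± 0.40 (limma p = 0.014, adjusted p = 0.10) and that from 6 to 12 hours -0.92 ± 0.37 (p = 0.017, adjusted p = 0.12). Neither passed after adjustment, where 10.9% and 9.38% of all genes did.

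At 24 hours Sox9 had its widest spread, from 4.43 through a median of 5.38 to 7.15 over 11 arrays (mean 5.45 ± 0.89). The 11 arrays were deposited in 3 runs of consecutive sample numbers, which the labels do not explain. Replicates 1 to 4 read 7.15, 6.19, 6.10 and 6.14, all above every untreated array. Replicates 5 and 6 read 5.75 and 5.38. Replicates 7 to 11 read 4.43, 4.44, 5.15, 4.51 and 4.77, all below the highest untreated array. The mean of replicates 1 to 4 was 1.74 above that of replicates 7 to 11, and for 25.1% of all genes these arrays likewise did not overlap, in 14% with replicates 1 to 4 above. On probe set 1424950_at replicates 1 to 4 read 4.79 to 5.51 and replicates 7 to 11 read 3.92 to 4.36, also without overlap. Krt19, Krt7, Krt23 and the Epcam probe set overlapped between these arrays, with differences of -0.08, 0.08, -0.33 and -0.07.

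The difference of Sox9 from untreated liver at 24 hours depended on these arrays. Over all 11 it was 0.44 ± 0.28 (limma adjusted p = 0.24), and 0.92 (0.021) with the Gapdh difference as a covariate. It was, with replicates 1 to 4 alone, 1.38 (adjusted p = 3.1e-05), with replicates 5 and 6 alone 0.55 (0.34), and with replicates 7 to 11 alone -0.36 (0.26). Without the 3 arrays with Xist signal it was 0.68 (0.062). Hybridization controls were 10.0 to 10.4 on replicates 1 to 4, 10.5 to 10.8 on 5 and 6 and 10.2 to 10.5 on 7 to 11. The Gapdh difference was 0.794 to 2.32, 0.942 to 1.09 and 0.534 to 0.809 in the same order, with the 2.32 on replicate 1, which also held the highest Sox9 value of all 52 arrays on each of the 3 probe sets. The part of these measures in the split was not tested.

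**Figure D3:**
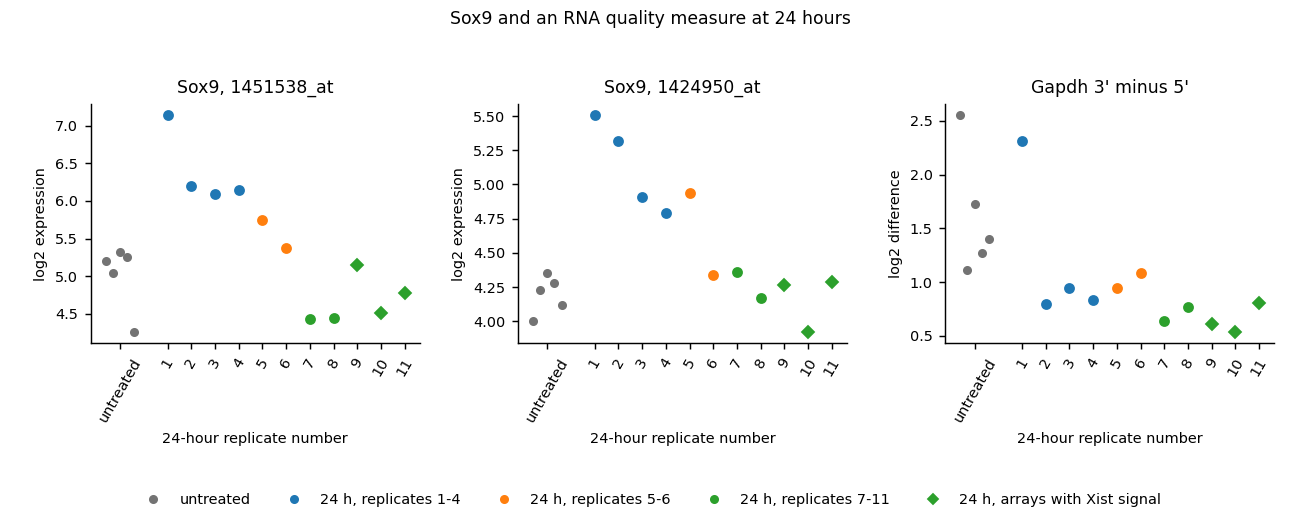
Sox9 on probe sets 1451538_at and 1424950_at (left and middle, log2 expression) and the Gapdh 3' minus 5' difference (right, log2) for untreated arrays in grey and the 11 arrays at 24 hours by replicate number, coloured by deposit run, with diamonds for the 3 arrays with Xist signal. Replicates 1 to 4 lay above replicates 7 to 11 on both Sox9 probe sets (6.10 to 7.15 against 4.43 to 5.15 on the left).

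From 48 hours to 1 week the Sox9 means were 5.22 to 5.40, 0.20 to 0.38 above untreated with adjusted p of 0.40 to 0.69. At 3 days the arrays were 4.82, 5.80, 5.23 and 5.73 and at 1 week 5.62, 5.28, 4.83 and 5.73, 2 of 4 at each time above the highest untreated array and none below the lowest. The lowest means were at 2 weeks (4.45, arrays 4.64 and 4.26) and 4 weeks (4.55 ± 0.13, n = 4), and at 3 months Sox9 was at 5.02 ± 0.11 (n = 3). In descending order the groups ran from 6 hours through 24 hours, 3 days, 1 week, 4 days, 48 hours, 3 months, untreated, 12 hours, 1 hour and 4 weeks to 2 weeks, and neighbours in that order differed by at most 0.25, less than the SD of at least 1 of the pair. Neighbours in a sorted order lie close by construction. This comparison, here and for Krt19 and Krt7 below, therefore cannot show whether times differ.

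Epcam encodes an adhesion molecule of epithelial cells that marks cholangiocytes and progenitor cells. Its 2 probe sets disagreed. On 1447899_x_at, the brighter set (mean 4.49 over all arrays), untreated arrays read 5.08, 4.57, 4.66, 4.93 and 4.51. Sets whose name ends in x_at hold probes that can also match other sequences. The 4 arrays at 3 days (3.90, 4.48, 4.08 and 4.32) and the 3 at 3 months (3.72, 4.34 and 4.34) all lay below the lowest of them. The set fell by 0.56 ± 0.14 at 3 days (limma adjusted p = 0.0017, 17.7% of all genes lower) and by 0.62 ± 0.15 at 3 months (0.0025, 13.4%).

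The other calls on this set were smaller and their arrays overlapped the untreated ones. They were -0.29 ± 0.11 at 24 hours (adjusted p = 0.046), -0.43 ± 0.14 at 4 days (0.016) and -0.42 ± 0.14 at 1 week (0.017), where 12.8%, 14.1% and 14.9% of all genes were lower. The 3-day call passed each time 1 untreated or 3-day array was left out, but ended with covariates for the hybridization controls (-0.31, adjusted p = 0.56), the poly-A controls (-0.50, 0.05) and the Gapdh difference (-0.34, 0.096). The 3-month call ended with the hybridization controls (-0.39, 0.46), and each of the other calls with all 3 covariates and without single arrays. At 24 hours this was untreated replicate 1 (-0.21, adjusted p = 0.22), 3 (-0.31, 0.055) or 4 (-0.24, 0.13), at 4 days untreated replicate 1 (-0.35, 0.068) or 4-day replicate 1 (-0.37, 0.066) or 2 (-0.37, 0.075), at 1 week untreated replicate 1 (-0.34, 0.071) or 1-week replicate 3 (-0.38, 0.057) or 4 (-0.35, 0.074), and the 3-month call ended without 3-month replicate 1 (-0.41, 0.075). Without the 3 arrays with Xist signal the 24-hour difference was -0.29 (0.064), and without the 7 doubted arrays 2 of the 5 lower calls were left, those at 3 days and 3 months.

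On the dimmer set, 1416579_a_at, whose probes match variants of the same gene, Epcam levels differed the other way. Untreated arrays read 3.93, 3.82, 3.86, 3.78 and 4.01, at the array medians. At 4 days the arrays read 4.84, 5.82, 4.03 and 4.34, all above every untreated array, a rise of 0.88 ± 0.26 (limma over all single-gene probe sets, adjusted p = 0.0086, with 16.3% of these sets higher). The rise ended without 4-day replicate 2 (0.52, adjusted p = 0.13), with hybridization controls as a covariate (0.35, 0.75) and with poly-A controls (1.00, 0.082). Differences at 3 days (0.37), 1 week (0.49) and 4 weeks (0.55) did not pass, with adjusted p of 0.27, 0.14 and 0.15. Single arrays were high at 3 days (5.00 on replicate 1) and 4 weeks (5.48 on replicate 3), beside others at the untreated level. Over the 52 arrays the 2 sets had a Pearson r of -0.25, and with their mean in place of 1 set no time was called lower for Epcam (0 of 11, with 1 at an unadjusted p under 0.05). With Krt19, Krt7, Krt23 and Sox9 the dimmer set had r of 0.54, 0.475, 0.26 and 0.03. Without 4-day replicate 2 these were 0.395, 0.37, -0.13 and -0.05. The brighter set had r of -0.16, -0.35, 0.06 and -0.08 with the same genes. Which set measures Epcam was not tested, and these values give Epcam no settled direction.

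Krt19 and Krt7 are the keratins by which bile ducts are usually stained. Krt19 is a type I and Krt7 a type II keratin, and both are also made by mesothelial cells, which cover the surface of the liver. Untreated Krt19 arrays read 4.83, 4.75, 4.91, 4.82 and 4.99. Krt19 at 3 days read 5.29, 5.13, 5.48 and 5.24, each above every untreated array, and at 1 week 5.42, 5.82, 5.11 and 4.80. The differences were 0.43 ± 0.22 at both times (limma p = 0.058, adjusted p = 0.12) and did not pass. With the arrays of the 3-day and untreated groups fitted alone the 3-day difference passed (adjusted p = 0.013), as it did with array weights (0.038), with which the 1-week difference also passed (0.58, 0.007). At 4 days the arrays were 4.87, 6.12, 4.57 and 5.30, and their mean difference of 0.35 was 0.05 without replicate 2.

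At the later times Krt19 read below untreated. All 4 arrays at 4 weeks (4.52, 4.11, 4.74 and 4.54), both at 2 weeks (4.68 and 4.36) and all 3 at 3 months (4.35, 4.66 and 4.11) lay below the lowest untreated array. The differences were -0.38 ± 0.22, -0.34 ± 0.27 and -0.49 ± 0.24, with limma adjusted p of 0.26, 0.58 and 0.12, and none passed. The untreated arrays of Krt19 lay close together (SD 0.09). The share of all genes whose arrays likewise did not overlap was not counted for any comparison between groups. Between neighbouring times the Krt19 difference was 0.49 ± 0.23 from 48 hours to 3 days (limma p = 0.041, adjusted p = 0.46) and -0.77 ± 0.28 from 1 to 2 weeks (p = 0.0097, adjusted p = 0.16), and all arrays at 2 weeks lay below all at 1 week. The 3 highest means, at 3 days, 1 week and 4 days (5.29, 5.29 and 5.21), differed by less than their SDs, and the next was 24 hours at 4.87 ± 0.31. From there the order ran through untreated liver, 48 hours, 1 hour, 12 hours, 6 hours, 2 weeks and 4 weeks to 3 months, and all 11 steps of that order, the largest of 0.34, were smaller than the larger SD of the pair.

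Krt7 rose at 3 days and 4 days. Untreated arrays read 3.82, 3.16, 3.28, 3.57 and 3.81, below the array medians. At 3 days they read 4.52, 3.90, 4.56 and 4.71, all above every untreated array, and at 4 days 4.06, 4.65, 3.52 and 4.19, of which 3 of 4 were. The rise was 0.89 ± 0.20 at 3 days (limma adjusted p = 0.00035, 21.7% of all genes higher) and 0.58 ± 0.20 at 4 days (0.020, 18.8% higher). The means were 3.36 at 6 hours, 3.63, 3.66 and 3.89 at 12, 24 and 48 hours, 4.42 at 3 days, 3.83 at 1 week and 3.32 at 2 weeks. The 48-hour to 3-day step was 0.54 ± 0.21 (limma p = 0.013, adjusted p = 0.34) and the 1-week to 2-week step -0.51 ± 0.25 (p = 0.047, adjusted p = 0.28). In the descending order of the 12 group means of Krt7, 3 days stood before 4 days and 48 hours, the largest of the 11 steps was 0.32, and each was smaller than the larger SD of its pair.

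The Krt7 rise at 3 days passed each time 1 untreated or 3-day array was left out, at 0.80 to 1.07 with adjusted p of 5.4e-05 to 0.0038. The 4-day rise ended without 4-day replicate 2 (0.39, adjusted p = 0.16) and without untreated replicate 2 (0.49, 0.063) or 3 (0.52, 0.053), and also with only the 4-day and untreated arrays fitted (adjusted p = 0.061). With the hybridization controls as a covariate the 3-day difference was 0.65 (adjusted p = 0.31) and the 4-day difference 0.37 (0.61), and with the poly-A controls these were 0.76 (0.032) and 0.42 (0.33). Over the 52 arrays Krt7 and Krt19 had a Pearson r of 0.75 (Spearman rho 0.71), 0.72 without 4-day replicate 2. This is a description over arrays that share groups and processing.

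Of 7 genes listed for mesothelial cells, 3 were higher at 3 days and 0 lower, where 21.7% of all genes were higher and 17.7% lower. The 3 were Msln (mesothelin, 0.70, adjusted p = 0.0075), Gpm6a (0.64, 0.026) and Upk1b (0.63, 0.042). Over all 11 times 6.49% of the 77 pairs of the list were higher and 3.9% lower. Wt1, a defining transcription factor of these cells, read 3.33 at 3 days and 3.23 untreated, and Upk3b 3.92 and 4.23, near or below the array medians. The summed level of the list was 6.91 to 7.30 on the 3-day arrays and 6.38 to 6.99 on untreated ones. The part of these cells in the Krt7 and Krt19 values was not tested.

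Krt23, a type I keratin of bile duct and other epithelia, passed the test at no time. Untreated arrays read 3.04, 3.46, 3.46, 3.69 and 3.91, and 11 group differences lay between -0.31 at 3 days and 0.16 at 4 days and 3 months (adjusted p of 0.25 to 0.88). Almost all arrays lay below the array medians, where a rise of a weak signal may not be seen. At 4 days 1 of 4 arrays, replicate 2, stood at 4.86, beside 3.03, 3.40 and 3.40, and without it the 4-day difference was -0.24 (adjusted p = 0.36). At 3 months replicate 2 read 4.12, beside 3.59 and 3.30.

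Replicate 2 at 4 days held the highest value of the 4 arrays on 5 of the 6 rows of Sox9, Krt19, Krt7, Krt23 and both Epcam sets, the exception being Epcam 1447899_x_at. It also held the highest value of all 52 arrays for Krt19, Krt23 and Epcam 1416579_a_at. The same array read 9.74 for Prom1, a membrane glycoprotein of biliary and progenitor cells, against 4.80, 5.05 and 5.64 on the other 4-day arrays and 3.92 to 4.62 on untreated ones. Cd24a, a surface glycoprotein of biliary epithelium, read 7.26 on it and 5.21 to 5.56 on the others. Of the 18 other cholangiocyte genes measured, replicate 2 was the highest of the 4 arrays for 10, and for Ehf, an epithelial transcription factor, it was the lowest (2.88). The share of all genes for which replicate 2 was the highest was not counted, so these counts cannot be read as particular to biliary genes. Its hybridization controls were lower, at 9.70 against 9.91 to 9.93 on the other 3 arrays, and its Gapdh difference of 1.04 lay among theirs (0.657 to 1.24). The part of this in its values was not tested.

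**Figure D4:**
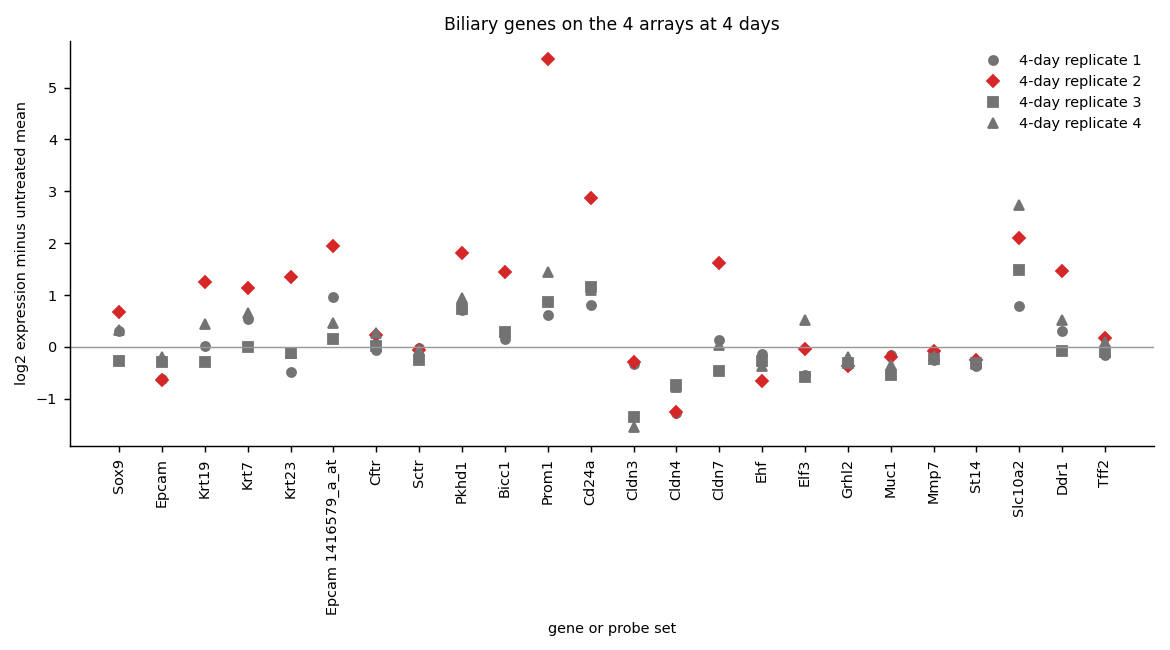
Difference of each of the 4 arrays at 4 days from the untreated mean (y axis, log2) for the measured members, the second Epcam probe set and 18 other cholangiocyte genes (x axis), with replicate 2 as red diamonds and the others in grey. Replicate 2 stood highest for Prom1, Cd24a, Krt19, Krt7 and Krt23 and near the others for Cftr, Sctr, Muc1 and Mmp7.

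Other genes listed for cholangiocytes had calls in both directions. Most higher calls were of Slc10a2 and most lower calls of Cldn3 and Cldn4, the last lower at 8 of the 11 times. The ion channel Cftr and Sctr had 0 calls. Of 20 listed, 18 were measured, and in 198 gene and time pairs 16 (8.08%) were higher and 25 (12.6%) lower, against 14.6% and 10.6% of all pairs. Cldn3, a tight junction protein, was lower at 10 of the 11 times with -2.86 ± 0.24 at 6 hours (limma adjusted p = 5.6e-12), from 9.75 to 6.88. Slc10a2, the apical bile acid transporter of cholangiocytes, was higher at 9 of the 11 times and by 2.99 ± 0.35 at 6 hours (1.3e-08), from 3.66 to 6.65. These are the list's largest differences, and they are not typical of it. Which cell type of whole liver the Cldn3 and Slc10a2 signals came from was not tested. At 4 days 5 of the 18 were higher (Prom1, Cd24a, Slc10a2, Bicc1 and Ddr1) and 3 lower (Cldn3, Cldn4 and St14), where 18.8% and 14.1% of all genes were. The list median there was -0.05, against -0.0049 over all genes. Without replicate 2 the counts were 1 and 2, with Prom1 at 0.97 (adjusted p = 0.16) in place of 2.12 and Cd24a at 1.02 (0.073) in place of 1.48. At 3 days, where Krt7 rose, 1 of the 18 was higher (Slc10a2) and 5 were lower (Cldn3, Cldn4, Elf3, Muc1 and St14), where 21.7% and 17.7% of all genes were.

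Krt8 and Krt18, the keratin pair that hepatocytes and cholangiocytes share, were the members of a list of 4 other liver keratins with calls. The list had 7 higher (15.9%) and 0 lower calls in 44 pairs, against 14.6% and 10.6% of all pairs. Krt18 was higher at 12 hours by 0.94 ± 0.23 (limma adjusted p = 0.0017) and at 24 hours, 3 days, 4 days and 1 week. Krt8 was higher at 24 hours by 0.62 (0.0056) and 4 days by 0.65 (0.019).

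Signals that act upstream of Sox9 and of bile duct fate gave mixed counts. Counts and differences of the gene lists come from the fit without technical covariates, against the same untreated arrays. With hybridization controls as a covariate, calls of the members and of the other cholangiocyte genes fell. Such a fit is not given here for the cell type, keratin and pathway lists. Notch signalling, in which a ligand on one cell activates a receptor on its neighbour, is the main inducer of the biliary fate. Of 121 pairs of 11 Notch genes 7 were higher (5.79%) and 19 lower (15.7%), against 14.6% and 10.6% of all pairs. Among receptors Notch2 was higher at 3 months by 0.86 ± 0.24 (limma adjusted p = 0.0060) and Notch1 at 3 days by 0.65 ± 0.22 (0.017). Notch3 was lower at 3 months (-0.65 ± 0.17), from 3.83 to 3.17, both below the array medians. Notch2 was higher at 3 of the 11 times and lower at 6 hours (-0.59 ± 0.22, limma adjusted p = 0.044). The Notch target Heyl was lower at 8 of the 11 times, with -0.62 ± 0.16 at 2 weeks (0.018). It went there from 4.32, little above the array medians, to 3.71, below them.

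The Hippo pathway holds back the coactivators Yap1 and Wwtr1 (TAZ), which with TEAD factors turn on growth genes and can drive hepatocytes to a biliary state. In 132 pairs of its 12 genes 27 were higher (20.5%) and 15 lower (11.4%), against the same 14.6% and 10.6%. Tead1 was higher at 6 hours by 3.62 ± 0.36 (limma adjusted p = 2.5e-10), from 5.81 to 9.43. The YAP target Ccn2 was higher by 3.00 ± 0.39 at 6 hours (8.9e-08). Ccn1, another target, was 1.23 higher at 1 hour and lower at 9 later times (-1.56 ± 0.31 at 4 weeks, 0.00054). At 6 hours Ccn1 read -1.16 ± 0.31 (limma adjusted p = 0.0042) and Amotl2 -0.79 ± 0.19 (0.0014). In all, 4 of the 12 genes were higher at 6 hours and 2 lower, where 11.4% and 10.5% of all genes were. A link of these genes to Sox9 was not tested. Wwtr1 was higher at 10 of the 11 times.

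Genes of the ductular reaction and of progenitor signals had 32 higher (20.8%) and 16 lower (10.4%) calls in 154 pairs of 14 measured genes, again against 14.6% and 10.6%. Tnfrsf12a, the receptor of the cytokine TWEAK that drives progenitor growth, was higher from 6 hours to 1 week and by 3.34 ± 0.55 at 12 hours (limma adjusted p = 6.3e-06). Cd44, a hyaluronan receptor also of immune cells, was higher at 4 days by 1.90 ± 0.49 (0.0026). Itgb1, an integrin subunit of most cells, was higher at all 11 times. Lgr5, a Wnt pathway receptor that marks pericentral hepatocytes and progenitors, was lower at 6 hours (-2.53 ± 0.39, 3.1e-06).

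The genes whose profiles over the 52 arrays were most like each member were taken from 3994 genes with a highest group mean of at least 6 and a span of group means of at least 1. For Sox9 these were Kctd10, Chka and Sptlc2 (Pearson r of 0.67, 0.66 and 0.64), and r was 0.64, 0.61 and 0.50 without the 2 arrays farthest from the Sox9 median. For Krt7 they were Pafah1b3, Cbr1 and Ckap4 (0.71, 0.70 and 0.69) and for Krt19 Gstm5, Prom1 and Cbr1 (0.64, 0.63 and 0.63). Prom1 had an r of 0.50 with Krt19 without 4-day replicate 2 and 1-week replicate 2. For Krt23 the nearest, Itih5, had 0.46, and 0.13 without 4-day replicate 2 and 3-month replicate 2. For Epcam 1447899_x_at they were Tmem151a, Ints14 and Ptchd1 (0.77, 0.74 and 0.72), and for 1416579_a_at Spink1, Scd2 and Lgals1 (0.68, 0.63 and 0.63), with no gene in common. These are descriptions over arrays that share groups and normalization.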

How the data were processed

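Liver RNA was measured on Affymetrix Mouse Genome 430 2.0 arrays. The deposited values are log2 expression per probe set, made by the authors with RMA in oligo 1.52.0, as the submitters' processing notes name them. This method equalizes the distributions of the arrays after background correction and hides a shift shared by most genes. Scanner files were not used here, and the number of arrays limits the precision. Of 45101 probe sets, 34958 named 1 gene, 932 several and 9211 were unlisted in the platform annotation. Of the 18194 genes, 18033 were matched to RefSeq through Entrez identifiers and 161 kept the annotation symbol.

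Groups came from the sample titles. Group means of all 52 arrays were fitted together in limma 3.58.1 (R 4.3.3) and moderated with eBayes, with contrasts of 11 times against untreated liver and 10 steps between adjacent times. Tests were two-sided with Benjamini-Hochberg adjustment over all genes of a contrast, at an adjusted p under 0.05. On simulated data of 18194 genes, a change of 1 (log2) was found for 83% of 100 genes and a change of 0.5 for 27% at 3 days, and for 89% and 55% at 24 hours. For 2 weeks, with 2 arrays, these shares were 74% and 10%. In this simulation 100 genes were changed by each amount, whereas 39.4% of all genes were called at 3 days. The adjustment depends on how many genes change, so these shares do not give the detection rate in the real comparisons.

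The members and gene lists were chosen with earlier results of these data known. All measured members are named. From each other list the text names up to 4 called genes with the largest absolute change and the largest in the rarer direction, and any other list gene in the text was picked with its values in view. Counts of a list are set beside the share of all genes or pairs called. Likeness was the Pearson r over 52 arrays, with up to 3 genes for each probe set. Alternatives were a replicate block, fits of only the arrays compared, probe set means per gene, a filter at the 40th percentile of highest group means, array weights, median centring, a trended and robust prior, quantile normalization and leaving out in turn each array of the groups other than 24 hours. Added after seeing the data were leaving out arrays with Xist above 6 or all doubted arrays (these, those with a Gapdh difference above 2, and those that correlated below 0 with their group over the 2000 most variable genes), the technical covariates, subsets of the 24-hour arrays and other probe sets.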

Additional observations from a re-analysis of the deposited data

Results flagged for a closer look

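Within groups of 4 to 10 arrays, 96 sets of values of the 5 members, the other probe sets and the 4 named cholangiocyte genes were searched for an array far from the rest of its group. Chance alone gives such a value in about 1 of 20 groups, and 3 were found. Sox9 on untreated replicate 5 was the lowest of its group at 4.25, beside 5.05 to 5.32 on the other 4 arrays. Sox9 on 6-hour replicate 1 was the highest of its group at 6.27, beside 5.46 to 5.51. Prom1 on 4-day replicate 2 was the highest of its group at 9.74, beside 4.80 to 5.64.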

How the results depend on the processing

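With 1 array outside the 24-hour group left out in turn, calls of members numbered 1 to 3 above and 2 to 6 below untreated liver and 0 to 0 up and 0 to 0 down between adjacent times. Those of the other cholangiocyte genes numbered 12 to 17 above and 18 to 28 below, and the adjusted p of the F test was 0.043 to 0.098 for Sox9, 0.00044 to 0.0022 for Epcam, 8e-04 to 0.008 for Krt19, 1.4e-05 to 0.00049 for Krt7 and 0.22 to 0.66 for Krt23. The 2 calls above became 1 without 4-day replicate 2, untreated replicate 2 or untreated replicate 3, and the 5 below became 2 without untreated replicate 1. Krt23 at 4 days was -0.24 to 0.38, the -0.24 without 4-day replicate 2.

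Replicate numbers did not pair the arrays: deviations of same-numbered arrays had a mean r of -0.012, against 0.0064 for other numbers, 48 of 224 pairs were over 0.1, and 4 of 52 arrays were closest to their own number. With the replicate number as a block, 2 steps up and 2 down were called, Sox9 at 24 hours was 1.25 with a limma adjusted p of 2.5e-05, and its F test gave 1.5e-06. The call of Epcam at 24 hours was lost (0.082). Replicate numbers above 5 occur only at 24 hours, so in this fit the 24-hour differences rest on replicates 1 to 5 of that group.

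Calls above untreated were 0 with the filter, which drops Krt7 and Krt23, 0 with hybridization controls, 1 with poly-A controls, 6 with array weights, 6 with the Gapdh covariate and 4 with 24-hour replicates 1 to 4 alone. Calls below were 0 with probe set means, 0 with hybridization controls, 1 with poly-A controls, 1 with Gapdh and 2 without doubted arrays. Up and down steps were 3 and 4 with array weights, 1 and 1 with quantile normalization, 1 and 2 without doubted arrays, 2 and 2 with 24-hour replicates 1 to 4, 1 and 1 with 5 and 6, and 1 and 1 with 7 to 11. There was 1 step up with probe set means, 1 up without Xist arrays and 1 down with Gapdh. For other cholangiocyte genes, calls above were 4 with hybridization and 10 with poly-A controls. Calls below were 5 with hybridization controls, 16 with poly-A controls, 13 with Gapdh and 12 with the filter, which kept 12 of 18.

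The F test of Sox9 passed with an adjusted p of 0.022 with probe set means, 0.045 with the filter, 0.032 with quantile normalization, 0.0022 with array weights, 0.013 without Xist arrays, 0.018 without doubted arrays, 0.0094 with Gapdh, 6.9e-06, 0.0015 and 0.00069 with 24-hour replicates 1 to 4, 5 and 6, or 7 to 11, and 0.037 on 1424950_at. That of Epcam was 0.065 with probe set means and that of Krt23 0.039 with array weights. Signs turned for Epcam with probe set means at 4 days (0.22), 1 week (0.033) and 4 weeks (0.21), and with hybridization controls at 2 weeks (0.14). On 1416579_a_at they turned at 48 hours (0.13), 3 days (0.37), 4 days (0.88), 1 week (0.49), 4 weeks (0.55) and 3 months (0.0033). Sox9 turned with Gapdh at 12 hours (0.34) and 4 weeks (0.12), with 24-hour replicates 7 to 11 (-0.36) and on 1433889_at at 6 hours (-0.040). The causes were not tested. Quantile normalization moved the higher share of all called genes from 55.1% to 44.9% at 3 days and from 57.1% to 45.3% at 4 days, and Krt7 remained called at both. Levels near the array medians limit what can be seen of Krt7, Krt23 and Epcam.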
